A study of Mus musculus with 18 samples.

Results

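Disallowed genes are transcribed in most tissues and kept almost silent in mature pancreatic beta cells. Here 10 of them, taken by name, were followed through RNA-seq libraries of sorted mouse beta cells: Ldha, Slc16a1, Hk1, Oat, Acot7, Cxcl12, Lmo4, Maf, Mgst1 and Pdgfra. Each was found among the 53090 gene IDs of the deposited count table, and all 10 were among the 19284 genes with enough counts to be tested. The 18 libraries form 4 groups, LIRKO HFD (n = 3), LIRKO chow (n = 4), Ctrl HFD (n = 5) and Ctrl chow (n = 6), named by genotype and diet. LIRKO mice lack the insulin receptor in the liver only, so the deletion lies outside the beta cell, and HFD is read here as high-fat diet. The islets of all groups were cultured overnight, dispersed and sorted by light scatter and by the cells' own fluorescence, a gate that uses no beta cell marker. The Cre driver, strain, sex, age and length of diet are not stated in these sources, nor is the genotype behind the word Ctrl.

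The beta cell couples insulin release to the oxidation of glucose in mitochondria, and several disallowed genes encode proteins that would cut across this coupling. Ldha and Slc16a1 encode lactate dehydrogenase A and the plasma membrane carrier of lactate and pyruvate, which allow pyruvate to leave the mitochondrial route or to enter the cell from the blood during exercise. Hk1 encodes a hexokinase that is active at low glucose. Other members are metabolic enzymes (Oat, Acot7, Mgst1), a chemokine (Cxcl12), regulators of transcription (Lmo4, Maf) and a growth factor receptor of mesenchymal cells (Pdgfra). Many of these genes are active in the endothelial cells, macrophages and fibroblasts of the islet, and in bulk libraries such cells and a higher level per beta cell cannot be told apart.

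Sequencing depth was 19490235 to 51714775 counts per library. Nothing in the labels ties a library to a mouse, so p-values cover only the spread between these libraries, and part of it may be technical. In the LIRKO chow group, replicates 1 and 2 were close to each other and so were replicates 3 and 4. Their counts differed by more than sampling noise, with a chi-square per degree of freedom of 4.92 and 6.21 over genes with at least 20 counts. The other 32 pairs of libraries within groups differed more (25.8 to 265). All 4 were kept as samples in the main fit, but a difference beyond sampling noise does not show separate mice. With each pair summed, the genes called by edgeR fell from 993 to 193 for LIRKO against Ctrl on chow. For HFD in LIRKO mice they fell from 392 to 7. The labels do not say whether the close libraries share mice, and Ctrl HFD replicates 1 and 2 stood apart from the other 3 of their group. Beta cell genes dominated every library: Ins2 held 59881 to 145739 counts per 1000000 reads (CPM), Ins1 19980 to 55400 CPM and Iapp 14996 to 42075 CPM. Genes of other cells were present at lower levels. The summed level of 11 alpha cell markers, mostly the glucagon gene Gcg, was 503 to 3668 CPM in LIRKO HFD, 435 to 2060 CPM in LIRKO chow, 478 to 4301 CPM in Ctrl HFD and 450 to 1901 CPM in Ctrl chow. Within LIRKO chow it was 437 and 435 CPM in replicates 1 and 2, and 1887 and 2060 CPM in replicates 3 and 4. Over all libraries the sums were 892 to 1634 CPM for 10 ductal markers, mostly Krt7, and 167 to 1967 CPM for 5 markers of pancreatic polypeptide cells. The part of these cells in the members' values was not tested. The summed level of 17 endothelial markers, all of them tested, was 327 to 410 CPM in LIRKO HFD, 22.9 to 234 CPM in LIRKO chow, 202 to 412 CPM in Ctrl HFD and 48.1 to 257 CPM in Ctrl chow. For 20 macrophage markers, 19 of them tested, the sums were 338 to 368 CPM, 118 to 235 CPM, 196 to 429 CPM and 155 to 296 CPM in the same order of groups. None of the endothelial and macrophage markers was at 0 in all libraries of a group. Kdr, Flt1 and Pecam1 were the most abundant endothelial markers, and C1qa, Ctss and Lyz2 the most abundant macrophage markers.

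No disallowed gene of the 10 passed the test in any comparison. The counts called by edgeR's quasi-likelihood test at an adjusted p under 0.05 were 0 of 10 for LIRKO against Ctrl on chow, where 5.15% of all tested genes passed, and 0 of 10 for LIRKO against Ctrl on HFD, where 0.508% did. Likewise 0 of 10 passed for HFD against chow in LIRKO mice, with 2.03% of all genes, and 0 of 10 for HFD against chow in Ctrl mice, with 9.93%. The genotype by diet interaction, which asks whether the genotype difference on HFD departs from that on chow, called 0 of 10 members and 0.00519% of all genes. At an unadjusted p under 0.05 the members counted 0, 1, 3, 1 and 0 in these 5 comparisons, against 18.8%, 7.81%, 16.5%, 34.2% and 5.52% of all tested genes. The count of 3, for HFD in LIRKO mice, was 0 without LIRKO chow replicate 1 or LIRKO HFD replicate 2 or 3, 1 without LIRKO chow replicate 2 and 5 without LIRKO chow replicate 3. The count of 1 for LIRKO against Ctrl on HFD was 4 without Ctrl HFD replicate 4, 2 without LIRKO HFD replicate 1 and 0 without LIRKO HFD replicate 3. That of 1 for HFD in Ctrl mice was 0 without Ctrl HFD replicate 4 and 2 without Ctrl HFD replicate 5 or Ctrl chow replicate 3. With 1 library left out, both counts of 0 reached at most 2, on chow without Ctrl chow replicate 1 and for the interaction without Ctrl HFD replicate 4. With the marker covariates described below the 5 counts were 5, 3, 1, 0 and 1. The count of 3 was 7 without LIRKO chow replicates 3 and 4, 0 without replicates 1 and 2, and 1 with these pairs summed. DESeq2 called 1 member, Maf, for HFD against chow in Ctrl mice (log2 change 1.42, adjusted p = 0.0493), where it called 20.3% of all genes, and 0 members elsewhere.

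The fitted changes leaned upward for HFD in both genotypes, and also for LIRKO against Ctrl on HFD. The median log2 change of the 10 members was 0.89 for HFD against chow in LIRKO mice, against 0.03 over all tested genes, and 0.39 in Ctrl mice, against 0.04 over all tested genes. Between genotypes the median was −0.01 on chow, against −0.02 over all genes, and 0.39 on HFD, against −0.04 over all genes. Of the 10 log2 changes, 7 were above 0 for HFD in LIRKO mice, 9 for HFD in Ctrl mice, 5 for LIRKO on chow and 8 for LIRKO on HFD. These comparisons share groups, so the counts are not independent of one another. Several members also rose and fell together over the libraries, so they are not 10 separate values. The share of all tested genes with a log2 change above 0 was not computed. Markers of other cells were higher with HFD too, with median log2 changes of 1.73 in LIRKO and 1.69 in Ctrl mice for endothelial markers and of 1.59 and 0.82 for macrophage markers. With the means of these marker lists as covariates, 0 of the 10 log2 changes were above 0 for HFD in LIRKO mice (median −0.93). In Ctrl mice 3 were (median −0.19). In LIRKO mice neither mean overlapped between the diets, so there the fit cannot separate diet from these markers. Of all genes it called 3 for HFD in LIRKO and 1 in Ctrl mice. The part of other cells in the lean was not tested.

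**Figure D1:**
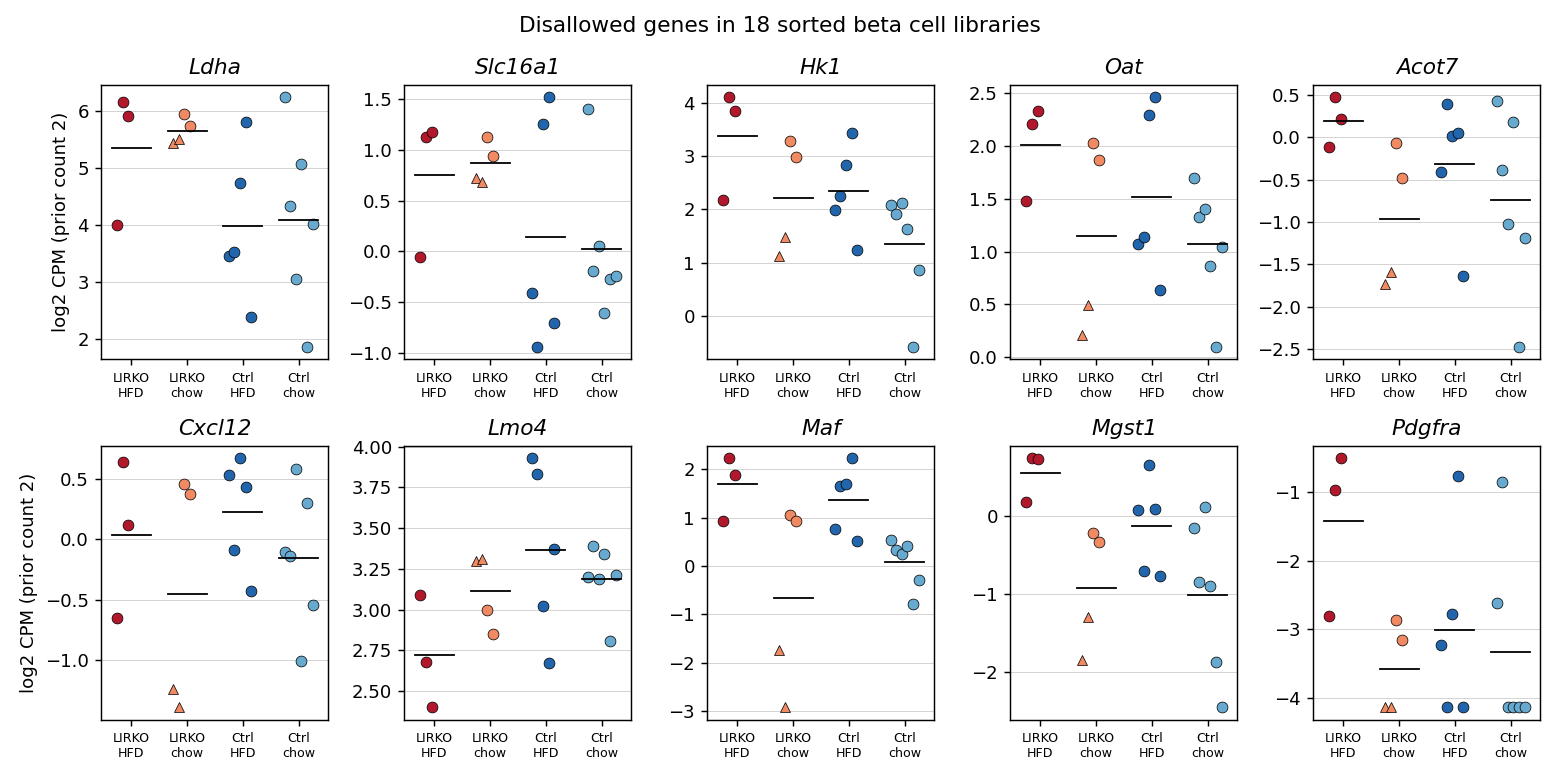
Level of each of the 10 disallowed genes in the 18 libraries, as log2 CPM with a prior count of 2, by group. Points are libraries, triangles are LIRKO chow replicates 1 and 2, and black bars are group means. Ldha spanned 3.58 to 75.4 CPM within Ctrl chow alone, while Mgst1 and Pdgfra were the 2 genes with every LIRKO HFD library above every LIRKO chow library, as were 16.1% of all tested genes. The lowest row of points of Pdgfra are libraries with 0 counts.

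Of the 10 genes, 9 lay below the median of all tested genes in level per length, and Ldha lay above it. Level per length was taken as CPM per kb of exon (GENCODE M21), and ranked among 19231 tested genes by its median over the 18 libraries. Ldha stood at 9.11 CPM per kb, the 74.4th percentile. Lmo4 followed at 2.58 (49.3rd percentile), Oat at 1.07 (36.9th) and Hk1 at 0.497 (26.6th). The remaining 6 lay below the 25th percentile: Mgst1 at 0.382, Acot7 at 0.371, Slc16a1 at 0.285, Maf at 0.184, Cxcl12 at 0.117 and Pdgfra at 0.00521 CPM per kb. The ranges over libraries of Hk1, Mgst1, Acot7 and Slc16a1 overlapped (0.0723 to 2.01, 0.0629 to 0.801, 0.0580 to 0.626 and 0.105 to 0.633 CPM per kb), so their order is not fixed by these libraries. For scale, Ins2 stood at 88879 CPM per kb.

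Ldha (ENSMUSG00000063229, chromosome 7, 46841475 to 46855627, plus strand, GRCm38) varied 21.1-fold over the libraries. It held 15.8, 71.2 and 60.4 CPM in LIRKO HFD, 43.2, 45.4, 61.6 and 53.1 CPM in LIRKO chow, 10.9, 11.5, 26.7, 56.1 and 5.15 CPM in Ctrl HFD, and 3.58 to 75.4 CPM with a median of 18.1 CPM in Ctrl chow. All 4 LIRKO chow libraries and 2 of the 3 LIRKO HFD libraries were high, whereas both Ctrl groups ran from low to high and overlapped with them. The log2 change of LIRKO against Ctrl was 0.96 (SE 0.67, adjusted p = 0.483 by edgeR) on chow and 1.15 (SE 0.76, adjusted p = 0.752) on HFD. Diet gave −0.05 in LIRKO and −0.24 in Ctrl mice (adjusted p = 0.98 and 0.806 by edgeR), and both values changed sign with some libraries left out. The annotation holds processed copies of Ldha elsewhere in the genome, and how the counting treated reads that fit both is not stated in these sources.

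The partner Ldhb, the heart type subunit of the same enzyme, varied 2.14-fold over the libraries, far less than Ldha. Per kb, Ldhb stood at 0.403 to 2.60 times Ldha in LIRKO HFD (median 0.425), 0.394 to 0.652 times in LIRKO chow (median 0.542), 0.667 to 8.80 times in Ctrl HFD (median 4.39) and 0.380 to 10.2 times in Ctrl chow (median 1.95). Ldha was the more abundant subunit in all 4 LIRKO chow libraries. Pyruvate carboxylase (Pcx), the enzyme that feeds pyruvate into the anaplerotic route, stood at 0.813 to 4.59 times Ldha in LIRKO HFD, 1.29 to 2.14 times in LIRKO chow, 1.92 to 19.3 times in Ctrl HFD and 1.74 to 37.9 times in Ctrl chow.

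Slc16a1 (ENSMUSG00000032902, chromosome 3, 104638668 to 104658462, plus strand), the monocarboxylate transporter MCT1, was low throughout. It held 0.900, 2.14 and 2.21 CPM in LIRKO HFD, 1.59, 1.55, 2.14 and 1.87 CPM in LIRKO chow, 0.695, 0.466, 2.34, 2.80 and 0.555 CPM in Ctrl HFD, and 0.599 to 2.60 CPM with a median of 0.806 CPM in Ctrl chow. In Ctrl chow 1 library, replicate 1, was at 2.60 CPM and the others at 0.599 to 0.978 CPM, and the same library held the most Ldha. The log2 change of LIRKO against Ctrl was 0.70 (SE 0.50, adjusted p = 0.490 by edgeR) on chow and 0.34 (SE 0.56, adjusted p = 0.929) on HFD. Slc16a3, the transporter MCT4 that exports lactate, was the more abundant of the pair in all libraries but 1, Ctrl HFD replicate 5: per kb it stood at 1.66 to 9.32 times Slc16a1 in LIRKO HFD, 5.93 to 7.74 times in LIRKO chow, 0.634 to 4.91 times in Ctrl HFD and 1.01 to 10.6 times in Ctrl chow.

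Hk1 (ENSMUSG00000037012, chromosome 10, 62268855 to 62379908, minus strand) held 4.44, 17.1 and 14.4 CPM in LIRKO HFD, 2.13, 2.74, 9.64 and 7.85 CPM in LIRKO chow, 3.92, 4.70, 7.05, 10.8 and 2.30 CPM in Ctrl HFD, and 0.616 to 4.33 CPM with a median of 3.38 CPM in Ctrl chow. The 2 highest values were in LIRKO HFD and the lowest was in Ctrl chow, but the groups overlapped in all 4 pairwise comparisons. Its log2 changes were 0.93 (SE 0.53) on chow and 1.06 (SE 0.59) on HFD for LIRKO against Ctrl, and 1.10 (SE 0.63) in LIRKO and 0.97 (SE 0.51) in Ctrl mice for HFD against chow, with adjusted p-values of 0.379, 0.715, 0.386 and 0.184 by edgeR. An antisense gene, Hk1os, overlaps Hk1, and the strand setting of the counting is likewise not stated.

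The sequences around the starts of Ldha, Slc16a1 and Hk1 are shown because these 3 genes had the highest log2 changes for LIRKO against Ctrl on chow among the members, and were called there in a fit with marker means as covariates. Each window holds 250 bases before and 50 after a RefSeq start on GRCm38.p6, read 5′ to 3′ on the gene's strand. Capitals mark ACGTG, the core that hypoxia-inducible factors read, and CACGTG, the E-box read by factors of the Myc family, searched on both strands. A CACGTG holds ACGTG once on each strand. The windows are chr7:46845554-46845853 on the plus strand for Ldha, chr3:104638414-104638713 on the plus strand for Slc16a1 and chr10:62340372-62340671 on the minus strand for Hk1.
Ldha: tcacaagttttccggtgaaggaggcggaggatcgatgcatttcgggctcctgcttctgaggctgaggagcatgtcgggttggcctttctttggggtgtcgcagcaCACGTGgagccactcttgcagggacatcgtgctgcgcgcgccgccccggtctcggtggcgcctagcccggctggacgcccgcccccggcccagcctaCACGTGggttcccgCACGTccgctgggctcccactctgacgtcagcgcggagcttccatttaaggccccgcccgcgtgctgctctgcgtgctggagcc
Slc16a1: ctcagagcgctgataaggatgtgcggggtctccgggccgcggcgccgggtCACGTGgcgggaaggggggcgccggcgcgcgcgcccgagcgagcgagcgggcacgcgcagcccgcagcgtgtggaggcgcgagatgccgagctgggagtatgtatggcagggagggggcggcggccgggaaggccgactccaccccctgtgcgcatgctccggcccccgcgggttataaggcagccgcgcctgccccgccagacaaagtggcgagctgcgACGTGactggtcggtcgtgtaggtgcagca
Hk1: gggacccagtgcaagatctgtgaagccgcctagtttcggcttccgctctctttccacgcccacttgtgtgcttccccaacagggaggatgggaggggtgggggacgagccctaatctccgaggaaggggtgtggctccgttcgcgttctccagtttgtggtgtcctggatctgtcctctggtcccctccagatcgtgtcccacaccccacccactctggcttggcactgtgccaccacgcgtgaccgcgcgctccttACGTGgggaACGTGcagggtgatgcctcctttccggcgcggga

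The Ldha window holds 5 matches to ACGTG, among them 2 CACGTG, that of Slc16a1 holds 3 and 1, and that of Hk1 holds 2 and 0. Of 32851 windows of the same length, 19.6% hold ACGTG, 1.73% hold it at least 3 times and 7.15% hold CACGTG. RefSeq windows were found for 9 of the 10 members, 14 windows in all, and 5 members have ACGTG in a window. That count is per member, some with several windows, and the shares above are per window, so they are not alike. Ldha and Hk1 have a further window each with 0 matches. These are letter matches in a window and no binding was measured here.

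Oat (ENSMUSG00000030934, chromosome 7, 132557478 to 132576398, minus strand), the mitochondrial ornithine aminotransferase, averaged 4.09 ± 1.20 CPM in LIRKO HFD, 2.52 ± 1.51 CPM in LIRKO chow, 3.19 ± 1.81 CPM in Ctrl HFD and 2.16 ± 0.749 CPM in Ctrl chow (SD, n = 3, 4, 5 and 6). Its 4 log2 changes were all above 0 and small, from 0.22 to 0.70, and 0 passed. Acot7 (ENSMUSG00000028937, chromosome 4, 152178134 to 152271855, plus strand), a cytosolic thioesterase that frees fatty acids from coenzyme A, held 0.871, 1.33 and 1.10 CPM in LIRKO HFD, 0.245, 0.274, 0.899 and 0.659 CPM in LIRKO chow, 0.264 to 1.26 CPM in Ctrl HFD and 0.123 to 1.29 CPM in Ctrl chow. The groups of Acot7 overlapped in all 4 pairwise comparisons, and its log2 change for HFD in LIRKO mice was 1.08 (SE 0.61, adjusted p = 0.385 by edgeR).

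Mgst1 (ENSMUSG00000008540, chromosome 6, 138140316 to 138156755, plus strand), a microsomal glutathione transferase, held 1.07, 1.61 and 1.60 CPM in LIRKO HFD, 0.220, 0.349, 0.799 and 0.741 CPM in LIRKO chow, 0.993, 0.559, 1.51, 1.01 and 0.528 CPM in Ctrl HFD, and 0.127 to 1.03 CPM with a median of 0.489 CPM in Ctrl chow. Every LIRKO HFD library was above every LIRKO chow library, as for 16.1% of all tested genes, and the 2 Ctrl groups overlapped. For HFD against chow the log2 change was 1.43 in LIRKO mice (SE 0.56, unadjusted p = 0.0206, adjusted p = 0.208 by edgeR) and 0.78 in Ctrl mice (SE 0.46, adjusted p = 0.238). Fitted on the 7 LIRKO libraries alone, Mgst1 was called at 1.44 (adjusted p = 0.0461), the 1 member so called, in a fit that called 18.8% of all genes. Without LIRKO chow replicates 1 and 2 the change was 0.89 (adjusted p = 0.760).

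Maf (ENSMUSG00000055435, chromosome 8, 115682942 to 115707794, minus strand) encodes c-Maf, a transcription factor of alpha cells, macrophages and some lymphocytes, where the mature beta cell uses MafA. It held 1.86, 4.62 and 3.66 CPM in LIRKO HFD, 0.245, 0.0748, 2.02 and 1.87 CPM in LIRKO chow, 1.64, 3.07, 3.20, 4.63 and 1.37 CPM in Ctrl HFD, and 0.524 to 1.39 CPM with a median of 1.17 CPM in Ctrl chow. The HFD libraries of both genotypes were mostly above the chow libraries, with an overlap in each. Its log2 change for HFD against chow was 1.68 in LIRKO mice (SE 0.69, unadjusted p = 0.0262, adjusted p = 0.230 by edgeR) and 1.41 in Ctrl mice (SE 0.56, unadjusted p = 0.0219, adjusted p = 0.0929).

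The change of Maf with genotype on chow rested on which LIRKO libraries were used. It was 0.01 with all 4 (SE 0.60, adjusted p = 0.998 by edgeR). LIRKO chow replicates 1 and 2 held 10 and 3 counts, and replicates 3 and 4 held 101 and 68. Without replicates 3 and 4 the change was −2.65 (adjusted p = 0.0495), a call in a fit that called 1.3% of all genes, and for HFD against chow Maf was then called in LIRKO mice at 4.35 (adjusted p = 0.00352), where 3.98% of all genes were called, and in Ctrl mice at 1.41 (adjusted p = 0.0458), where 5.28% were. Without replicates 1 and 2 the change on chow was 0.89 (adjusted p = 0.334), and Maf was called for HFD in Ctrl mice at 1.40 (adjusted p = 0.0420), where 4.96% of all genes were called.

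Mafa fell with HFD in both genotypes, by 2.24 on the log2 scale in LIRKO mice (SE 0.57, adjusted p = 0.0483 by edgeR) and by 1.87 in Ctrl mice (SE 0.44, adjusted p = 0.0312). Neither call held with the LIRKO chow pairs summed (−2.25, adjusted p = 0.213, and −1.87, adjusted p = 0.0588) or with the marker covariates described below (−0.75 and −1.06, adjusted p = 0.763 and 0.535). Of all genes, 7 and 114 were called for HFD in LIRKO and Ctrl mice with the pairs summed, and 3 and 1 with the covariates. The call in LIRKO mice was also lost without LIRKO chow replicates 1 and 2 (−1.37), and that in Ctrl mice without Ctrl HFD replicates 1 and 2 (−1.33). Per kb, Mafa stood at 2.84 to 14.1 times Maf in LIRKO HFD, 24.0 to 1846 times in LIRKO chow, 6.11 to 67.5 times in Ctrl HFD and 82.4 to 500 times in Ctrl chow. The 2 ranges in Ctrl mice did not overlap, nor did the 2 in LIRKO mice. How often ratios of other genes separate the diets in this way was not computed, and this ratio was chosen after values were seen. The highest ratio, 1846, rested on 3 counts of Maf. In every library Mafa was the higher of the pair.

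Lmo4 (ENSMUSG00000028266, chromosome 3, 144188530 to 144205220, minus strand), an adaptor protein of LIM domain transcription complexes, varied least, 2.89-fold over the libraries. It held 8.45, 6.34 and 5.24 CPM in LIRKO HFD, 9.80, 9.85, 7.97 and 7.14 CPM in LIRKO chow, 15.1, 14.2, 8.05, 6.30 and 10.3 CPM in Ctrl HFD, and 6.94 to 10.4 CPM with a median of 9.18 CPM in Ctrl chow. The 2 highest libraries, both Ctrl HFD, were replicates 1 and 2 of that group. On HFD its log2 change in LIRKO against Ctrl was −0.69 (SE 0.25, unadjusted p = 0.0142, adjusted p = 0.412 by edgeR), and without those 2 libraries it was −0.30 (adjusted p = 0.559). In the other 3 pairwise comparisons its log2 change was −0.38 to 0.23.

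Cxcl12 (ENSMUSG00000061353, chromosome 6, 117168535 to 117181367, plus strand), the chemokine that binds the receptor Cxcr4, held 0.581, 1.50 and 1.03 CPM in LIRKO HFD, 0.367, 0.324, 1.32 and 1.24 CPM in LIRKO chow, 0.687 to 1.54 CPM in Ctrl HFD and 0.439 to 1.44 CPM in Ctrl chow. Its log2 changes ran from −0.16 to 0.36 over the 4 pairwise comparisons, and 0 passed. The receptor was the more abundant: Cxcr4 averaged 16.6 ± 4.21 CPM in LIRKO HFD, 4.27 ± 4.05 CPM in LIRKO chow, 13.9 ± 3.85 CPM in Ctrl HFD and 6.23 ± 3.07 CPM in Ctrl chow (SD, n = 3, 4, 5 and 6). Per kb, Cxcl12 stood at 0.00598 to 0.111 times Cxcr4 over the 18 libraries.

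Pdgfra (ENSMUSG00000029231, chromosome 5, 75152292 to 75198215, plus strand), the receptor that marks fibroblasts and other mesenchymal cells, was near absent. It had 3, 21 and 26 counts in LIRKO HFD, 0, 0, 4 and 2 counts in LIRKO chow, 1, 0, 3, 17 and 0 counts in Ctrl HFD, and 0 in 4 of the 6 Ctrl chow libraries with 4 and 17 in the others. Every LIRKO HFD library was above every LIRKO chow library in CPM, at 0.0871 to 0.652 CPM against 0 to 0.0799 CPM, although 1 of the 3 rested on 3 counts. The fitted log2 change for HFD in LIRKO mice was 3.39 (SE 1.42, unadjusted p = 0.0283, adjusted p = 0.237 by edgeR), a value that depends on how counts of 0 are handled. Mgst1 and Pdgfra were thus 2 of 10 members with every LIRKO HFD library above every LIRKO chow library, a share close to that of all tested genes, 16.1%. The related receptor gene Pdgfrb, a pericyte marker, averaged 5.60 ± 3.62 CPM in LIRKO HFD, 1.45 ± 1.26 CPM in LIRKO chow, 5.85 ± 1.37 CPM in Ctrl HFD and 2.02 ± 2.50 CPM in Ctrl chow (SD, n = 3, 4, 5 and 6). The summed level of 15 mesenchymal markers was 44.2 to 49.0 CPM in LIRKO HFD, 5.36 to 28.7 CPM in LIRKO chow, 21.7 to 88.2 CPM in Ctrl HFD and 13.5 to 30.2 CPM in Ctrl chow, and its part in the values of Pdgfra was not tested.

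Markers of other islet cells were higher with HFD in part. Pecam1, the endothelial adhesion molecule, held 30.2, 54.2 and 47.3 CPM in LIRKO HFD, 2.16, 3.12, 26.6 and 23.0 CPM in LIRKO chow, 25.7, 33.8, 19.2, 28.5 and 12.4 CPM in Ctrl HFD, and 2.87 to 16.6 CPM with a median of 5.69 CPM in Ctrl chow. Its log2 change for HFD was 1.68 in LIRKO mice (adjusted p = 0.227 by edgeR) and 1.70 in Ctrl mice (adjusted p = 0.0575). Of the 17 endothelial markers, 1 passed higher with HFD in LIRKO mice (Esam, 1.04) and 5 in Ctrl mice (Esam, Eng, Cd34, Egfl7 and Tie1, 0.66 to 1.90), with medians of 1.73 and 1.69. Of the 19 tested macrophage markers, 6 passed higher with HFD in LIRKO mice, among them the lysozyme gene Lyz2 at 1.47, and 0 in Ctrl mice, with medians of 1.59 and 0.82. Over all tested genes, 1.06% were called higher with HFD in LIRKO and 5.57% in Ctrl mice. Between genotypes 0 of 17 and 0 of 19 passed on HFD, and on chow 0 endothelial markers and 1 macrophage marker, Lyz2, which was lower in LIRKO mice (−1.13, adjusted p = 0.0433 by edgeR). With the LIRKO chow pairs summed, 0 of these marker calls held. Of all genes that fit called 193 for genotype on chow, 7 for HFD in LIRKO and 114 for HFD in Ctrl mice. The marker calls in LIRKO mice were also lost without LIRKO chow replicates 1 and 2, where 3 genes of all were called for HFD. Those in Ctrl mice were lost without Ctrl HFD replicates 1 and 2, where 34 were. They were lost as well with only the Ctrl groups in the fit, where 1 gene of all was called, and with no filter on low counts, where 457 were.

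Cd68 did not stand for the macrophage list. It held 17.7 to 24.3 CPM in LIRKO HFD, 15.5 to 17.7 CPM in LIRKO chow, 10.1 to 29.6 CPM in Ctrl HFD and 14.5 to 32.6 CPM in Ctrl chow, and its log2 changes were −0.40 to 0.36 with adjusted p-values of 0.315 to 0.862 by edgeR. In LIRKO chow replicates 1 and 2 it stood at 15.5 and 16.1 CPM, against 17.7 and 16.4 CPM in replicates 3 and 4, while the mean log2 CPM of the 19 tested macrophage markers was 1.09 and 1.11 against 2.67 and 2.48. The mean of the list was therefore used below beside Cd68.

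The close pairs of LIRKO chow differed in these markers and in the members inside 1 group. Summed alpha, mesenchymal and pancreatic polypeptide markers were higher in replicates 3 and 4 too, and acinar markers were lower. The mesenchymal sum was 28.7 and 23.4 CPM there, against 5.36 and 5.76 CPM in replicates 1 and 2. This 1 contrast therefore singles out no cell type. How many of all genes have ratios like those below was not computed. Replicates 3 and 4 held 26.6 and 23.0 CPM of Pecam1, against 2.16 and 3.12 CPM in replicates 1 and 2, and endothelial means of 3.23 and 3.04 against −0.24 and 0.00 log2 CPM. In the ratio of mean CPM of replicates 3 and 4 over 1 and 2, Maf stood at 12.1, Cxcl12 at 3.69, Hk1 at 3.59, Oat at 3.12, Acot7 at 3.0 and Mgst1 at 2.70. Ldha and Slc16a1 stood at 1.30 and 1.28, and Lmo4 at 0.769. Pdgfra had counts in replicates 3 and 4 only.

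Across all 18 libraries the members differed in the same way. Likeness is given as Pearson's r of log2 CPM over the 18 libraries, as a description only: the points share the make-up of each library, and 4 of them are 2 close pairs. Maf, Hk1, Mgst1 and Oat went with Pecam1 (r = 0.84, 0.79, 0.77 and 0.76) and with the mean of the macrophage list (0.91, 0.70, 0.86 and 0.82). Cxcl12, Acot7 and Pdgfra were at 0.65, 0.63 and 0.55 with Pecam1 and at 0.68, 0.77 and 0.68 with the macrophage list. Ldha and Slc16a1 were at 0.14 and 0.18 with Pecam1, 0.20 and 0.30 with the macrophage list and 0.52 and 0.61 with Cd68. Lmo4 ran the other way, at −0.24 with Pecam1 and −0.48 with Cd68. With Pecam1, Spearman's rank correlation was 0.88 for Maf, 0.86 for Hk1, 0.79 for Mgst1 and 0.75 for Oat, and r was 0.78, 0.74, 0.67 and 0.63 without the 2 libraries farthest from the median of Pecam1. Other values rested more on such libraries: left out in the same way, Acot7 with Pecam1 was at 0.42, and with the macrophage list Cxcl12 was at 0.38, Ldha at 0.54 and Slc16a1 at 0.60.

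**Figure D2:**
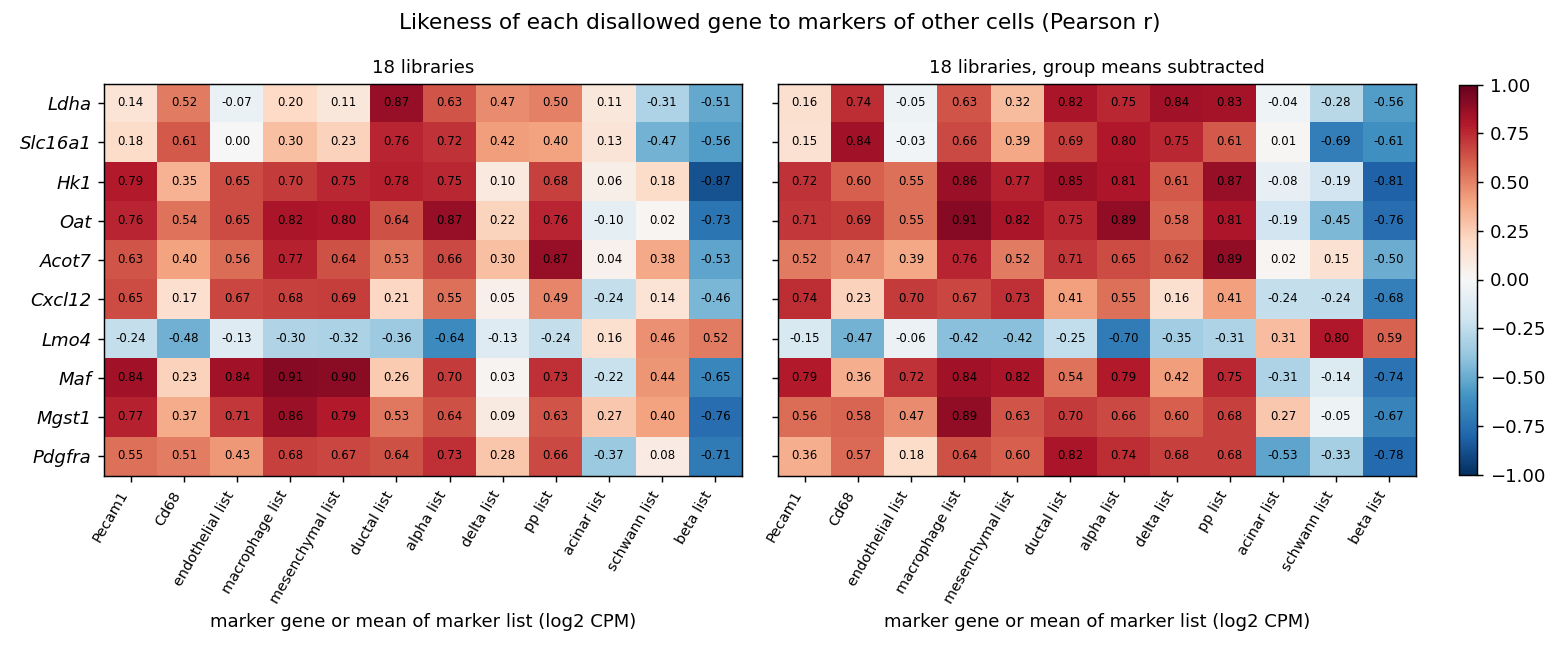
Pearson's r over 18 libraries between each disallowed gene (rows) and Pecam1, Cd68 or the mean log2 CPM of a marker list (columns), before (left) and after (right) group means were subtracted. Maf, Hk1, Oat and Mgst1 are at 0.76 or more with Pecam1 on the left, Ldha and Slc16a1 at 0.14 and 0.18, and Lmo4 at −0.24.

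After group means were subtracted, which leaves the spread within groups, r with Pecam1 was 0.79 for Maf, 0.72 for Hk1, 0.71 for Oat, 0.56 for Mgst1, 0.16 for Ldha and 0.15 for Slc16a1, and r with the macrophage list was 0.63 for Ldha and 0.66 for Slc16a1. Other marker lists gave high values too. Ldha was at 0.87 with the ductal list, of which 7 of 10 markers were tested, and Oat was at 0.87 with the alpha cell list. Most of the ductal sum was Krt7, at 692 to 1268 CPM in all libraries. Acot7 was at 0.87 with the list of pancreatic polypeptide cells, Maf at 0.90 with the mesenchymal list and Hk1 at −0.87 with the beta cell list. Several lists gave values of this size for the same gene, so a high r with one list does not single it out.

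The genes most like a member over the 18 libraries were named by the highest r. Ldha was most like Hilpda, a lipid droplet protein induced by hypoxia (r = 0.961), Slc16a3 (0.954) and Gm1840 (0.950). Hilpda held 9.09, 32.4 and 27.7 CPM in LIRKO HFD, 22.1, 22.9, 28.8 and 24.9 CPM in LIRKO chow, 5.63 to 22.1 CPM in Ctrl HFD and 5.02 to 23.3 CPM in Ctrl chow, so that the low library of LIRKO HFD and the high library of each Ctrl group were those of Ldha. Slc16a1 was most like Rnd3 (0.903), Vav3 (0.902) and Ceacam1 (0.888). Maf was most like the lysosomal transporter gene Slc15a3 (0.949), Neurl3 (0.948) and Inf2 (0.946), and Mgst1 most like Gpr65 (0.951), the complement receptor gene C3ar1 (0.919) and Filip1l (0.916). Pdgfra was most like the chemokine gene Ccl2 (0.961), the cytokine gene Il6 (0.907) and the growth factor gene Ereg (0.903).

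For Hk1 the nearest genes were Anxa2 (r = 0.935), Ifitm3 (0.929) and the proteoglycan gene Srgn (0.927), and for Oat they were Edn3 (0.943), Srgn (0.943) and Plaur (0.923). Acot7 was nearest to Plin3 (0.906), Spats2l (0.898) and Galk1 (0.890), and Cxcl12 to Ampd3 (0.851), Htr2b (0.836) and Smad3 (0.828). Lmo4 was nearest to Gm648 (0.905), 2700046G09Rik (0.905) and Lsm12 (0.903). Among pairs of members, Hk1 and Oat were the most alike (r = 0.90), followed by Hk1 and Mgst1 (0.83) and Oat and Maf (0.81), and Ldha and Slc16a1 were at 0.79.

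**Figure D3:**
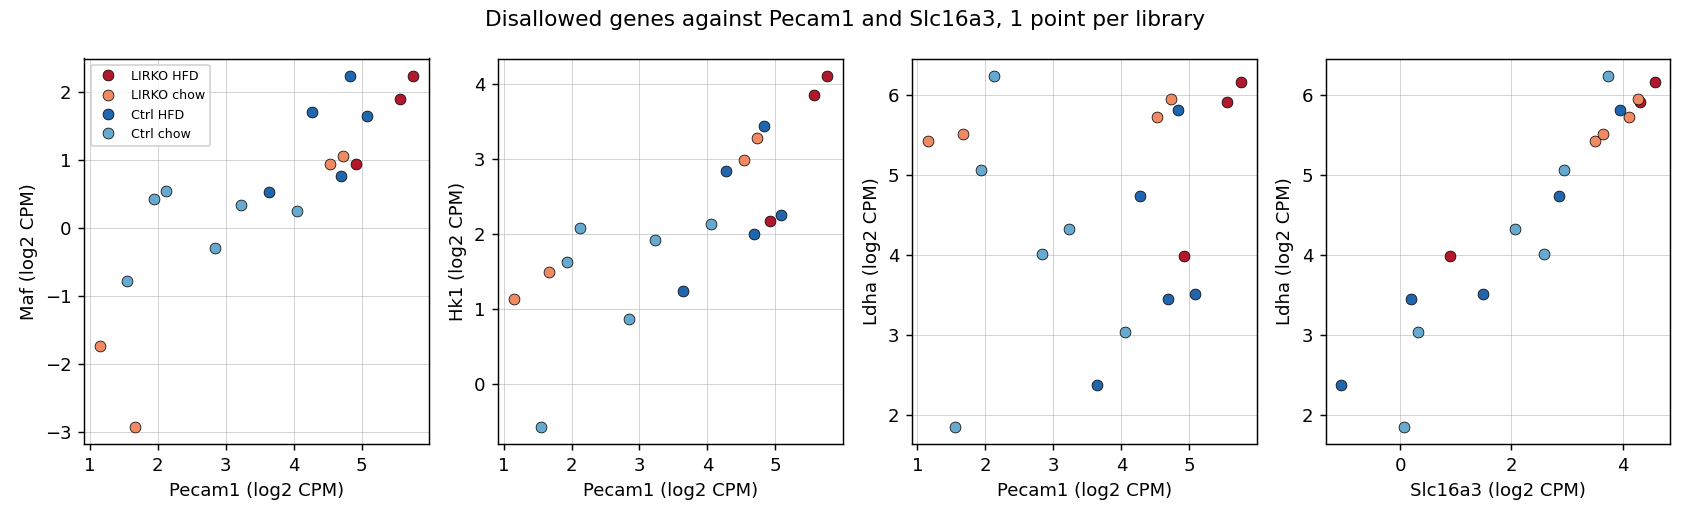
Maf, Hk1 and Ldha against Pecam1, and Ldha against the lactate exporter gene Slc16a3, as log2 CPM with 1 point per library, coloured by group. Maf and Hk1 climb with Pecam1 over the 18 libraries (r = 0.84 and 0.79), while Ldha is at r = 0.14 with Pecam1 and at r = 0.954 with Slc16a3.

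The comparisons were repeated with the endothelial and macrophage means of each library as covariates. For LIRKO against Ctrl on chow, 3 of the 10 members were then called, all higher: Ldha at 2.41 (SE 0.52, adjusted p = 0.00792 by edgeR), Slc16a1 at 1.63 (SE 0.36, adjusted p = 0.00978) and Hk1 at 1.71 (SE 0.34, adjusted p = 0.00519). In that fit 4.85% of all tested genes were called higher and 8.32% in either direction. The call rested on the close pairs of LIRKO chow. With each pair summed, 1 member was called, Hk1 at 1.80 (adjusted p = 0.0407, 2.07% of all genes called), while Ldha was at 2.45 (adjusted p = 0.0596) and Slc16a1 at 1.66 (adjusted p = 0.0814). Without replicates 1 and 2, 0 members were called, with Ldha at 2.05, Slc16a1 at 1.40 and Hk1 at 1.14 (adjusted p = 0.423, 0.372 and 0.379). Without replicates 3 and 4, 0 were called, at 3.01, 2.01 and 2.76 (adjusted p = 0.732, 0.669 and 0.168). The direction was the same in all of these fits, at 1.14 to 3.01, but they share the Ctrl chow libraries and the scores. They are therefore not separate support. Without replicates 3 and 4 and without the covariates, Hk1 was at −0.24, against 2.76 with them, while Ldha and Slc16a1 kept their direction. The scores of replicates 1 and 2 lay below those of all other libraries, so the adjustment extends past the range shared by both genotypes.

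In the other comparisons the covariates brought 0 members past the threshold and moved the diet changes downward. Of all genes, 117 were called there for LIRKO against Ctrl on HFD and 2 for the interaction. The diet comparisons called 3 in LIRKO and 1 in Ctrl mice, so few genes of any kind passed. For HFD in LIRKO mice, Maf was at −0.44, Mgst1 at −0.40, Hk1 at −1.04 and Oat at −0.91, against 1.68, 1.43, 1.10 and 0.70 without the covariates. In Ctrl mice Maf was at −0.16 and Hk1 at −0.07, against 1.41 and 0.97 without them. Ldha, for LIRKO against Ctrl on HFD, was at 1.19 against 1.15. In the same fit, 7 of the 10 members had a slope on the macrophage mean past the threshold, where 3.3% of all genes did: Ldha, Slc16a1, Hk1, Oat, Maf, Mgst1 and Pdgfra, at 0.991 to 3.93 log2 units per log2 unit of the mean. On the endothelial mean 0 of 10 did, where 1.15% of all genes did, and the slopes ran from −0.608 for Ldha to 0.433 for Maf. Both means were in 1 fit, so each slope is that left beside the other mean. The 2 counts therefore do not single out a cell type. Slopes were not recomputed without LIRKO chow replicates 1 and 2, and means of other lists were not put in the fit. The endothelial mean was 3.80 to 4.09 in LIRKO HFD against −0.24 to 3.23 in LIRKO chow, and 2.91 to 4.09 in Ctrl HFD against 0.91 to 3.17 in Ctrl chow. The macrophage mean was 3.23 to 3.65 in LIRKO HFD against 1.09 to 2.67 in LIRKO chow, and 2.47 to 3.89 in Ctrl HFD against 1.80 to 3.12 in Ctrl chow. In LIRKO mice neither mean overlapped between the diets, so there the diet and these markers cannot be told apart.

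**Figure D4:**
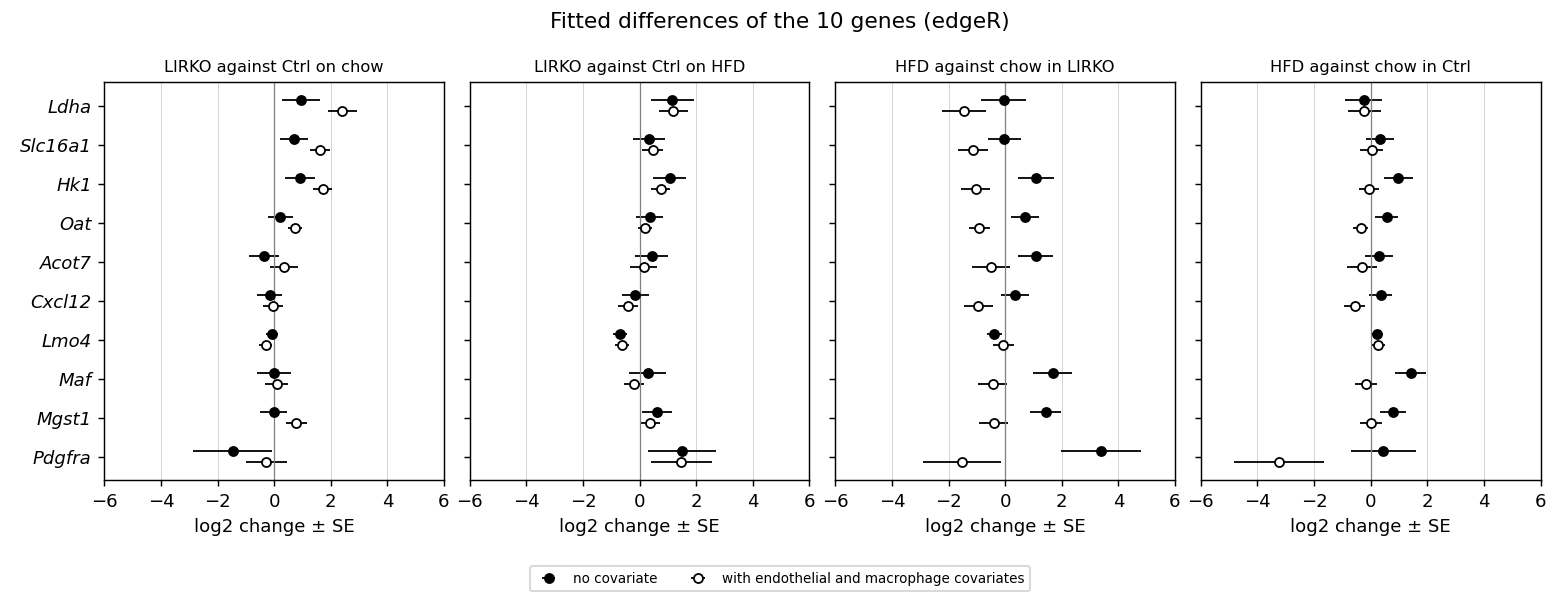
Fitted log2 change with its SE for each disallowed gene in the 4 pairwise comparisons by edgeR, without (filled) and with (open) the endothelial and macrophage means as covariates. With the covariates, Ldha, Slc16a1 and Hk1 stand at 2.41, 1.63 and 1.71 for LIRKO against Ctrl on chow, and Maf stands at −0.44 in place of 1.68 for HFD against chow in LIRKO.

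Of 16 further disallowed genes, all tested, 0 passed between genotypes on either diet, and several rose with HFD. In LIRKO mice 2 of 16 rose, where 1.06% of all genes were called higher: Arhgdib, a gene of blood cells, by 2.04 (SE 0.49, adjusted p = 0.0375 by edgeR) and Fcgrt, the neonatal Fc receptor, by 1.94 (adjusted p = 0.0397). In Ctrl mice 4 of 16 rose, where 5.57% of all genes were called higher: Fcgrt by 2.03, Igf1 by 1.67, the lectin receptor gene Cd302 by 1.28 and the transcription factor gene Nfib by 1.69 (adjusted p = 0.0167 to 0.0499 by edgeR). The median of the 16 was 1.26 in LIRKO and 0.82 in Ctrl mice, against 0.03 and 0.04 over all genes. With the endothelial and macrophage means as covariates, 0 of these calls held. That fit called 3 of 19284 genes for HFD in LIRKO mice and 1 in Ctrl mice, so the loss does not single out these genes. Arhgdib and Fcgrt were at 0.65 and 0.65 in LIRKO mice. In Ctrl mice Fcgrt, Igf1, Cd302 and Nfib were at 1.15, 1.11, 1.01 and 0.08. Both calls in LIRKO mice were lost without LIRKO chow replicates 1 and 2 (Arhgdib at 1.42, Fcgrt at 1.35), and all 4 in Ctrl mice without Ctrl HFD replicates 1 and 2 or with only the Ctrl groups in the fit. With the LIRKO chow pairs summed, 1 call held, that of Fcgrt in Ctrl mice. Of all genes that fit called 7 for HFD in LIRKO and 114 in Ctrl mice. Without LIRKO chow replicates 1 and 2, 3 were called in LIRKO mice. In Ctrl mice 34 were called without Ctrl HFD replicates 1 and 2, and 1 with only the Ctrl groups.

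Genes related to the members by family or pathway, some of them of other cells, were listed as partners, of which 61 of 63 were tested. For LIRKO against Ctrl on chow, 2 rose and 2 fell: Pycr1, of proline synthesis from glutamate and ornithine, by 0.62 (adjusted p = 0.00594 by edgeR) and the LIM-only gene Lmo1 by 0.75, while Pcx fell by 0.68 and the glycerol phosphate shuttle enzyme gene Gpd2 by 0.75. On HFD 0 of 61 passed between genotypes. With HFD in LIRKO mice 0 rose and 3 fell: Pycr1 by 0.86, the spermidine synthase gene Srm by 0.53 and Mafa by 2.24. With HFD in Ctrl mice 3 rose, Gckr by 1.55, the islet factor gene Isl1 by 0.63 and Lmo1 by 0.56, and 7 fell: Mafa, the glucose-6-phosphatase gene G6pc2 (by 0.86), the mitochondrial pyruvate carrier gene Mpc1 (by 0.83), the peptidase gene Dpp4 (by 0.75), Gpd2 (by 0.54), Pcx (by 0.50) and the glutathione reductase gene Gsr (by 0.46). The medians of the 61 were 0.00, 0.02, 0.01 and −0.04 in the 4 pairwise comparisons, and the shares called over all genes were those given above. With the LIRKO chow pairs summed, 0 of the partner calls held, with Pycr1 on chow at 0.63 (adjusted p = 0.0991 by edgeR). Of all genes that fit called 193 for genotype on chow, 7 for HFD in LIRKO and 114 for HFD in Ctrl mice. The partner calls in Ctrl mice were also all lost without Ctrl HFD replicates 1 and 2 or with only the Ctrl groups in the fit, and those on chow and in LIRKO mice without LIRKO chow replicates 1 and 2. With the marker means as covariates, 0 of 10 partner calls for HFD in Ctrl mice held and 0 of 3 in LIRKO mice. That fit called 1 and 3 of 19284 genes there, so the loss does not single out the partners. For LIRKO against Ctrl on chow 4 of 4 held, where 8.32% of all genes were called. With the covariates, 0 of these 4 held once the LIRKO chow pairs were summed, or replicates 1 and 2, or 3 and 4, were left out. Those fits called 410, 54 and 30 genes of all.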

How the data were processed

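RNA-seq libraries of sorted mouse beta cells were compared between LIRKO and Ctrl mice on HFD and chow. The deposited table holds raw counts of reads for each Ensembl gene and library, made by the authors with STAR and featureCounts on GRCm38 per the submitters' processing notes. Versions, annotation release, strand setting and the treatment of reads with several matches are not stated in these sources. Libraries were made with a directional kit from total RNA, per the labels' protocols. All columns matched a sample (0 did not), and 52403 of 53090 IDs had a GENCODE M21 symbol. The remaining 687 made up no more than 0.102% of any library.

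The quasi-likelihood test of edgeR 4.0.16 (R 4.3.3) was run on these counts: low counts removed with filterByExpr on the groups (19284 genes left), libraries scaled by TMM, 1 coefficient per group fitted to all 18 libraries, two-sided tests, p-values adjusted by Benjamini and Hochberg over all tested genes and called under 0.05. SE is the log2 change over the square root of F. CPM uses TMM-scaled library sizes, log2 CPM a prior count of 2, and level per kb the union exon length of GENCODE M21. Intervals are not given for counts, and totals limit precision for members with few counts. The test was also run on simulated counts with known changes, and the outcome is not given here. Only genes with a mean CPM above 1 were changed, and each library was drawn independently. That run therefore does not bear on members with few counts, on the close pairs or on differences in cell content.

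Alternatives were DESeq2 1.42.0, DESeq2 size factors in edgeR, no filter, only the compared groups, pairs summed, libraries left out, and the mean log2 CPM of endothelial and macrophage markers as covariates. Those without a LIRKO chow pair, and the covariate fits with pairs left out or summed, were added after seeing the data, as were all alternatives for genes that are not members and the share of genes whose LIRKO groups do not overlap. The members and lists were chosen with earlier results of these data known. Named were all members, Pecam1, Cd68, up to 4 called genes per comparison from the further disallowed genes and from each of the separate partner lists (lactate and pyruvate, hexokinase, ornithine, thioesterase, glutathione, chemokine, LIM and Maf, PDGF), the 3 genes most like each member, and the 3 most abundant markers of a list. Endothelial markers that passed, the partners set in ratio to members, Mafa among them, and the promoter motifs were chosen after values were seen. Promoter windows are from RefSeq on GRCm38.p6. Some items are not reported here.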

Additional observations from a re-analysis of the deposited data

Results flagged for a closer look

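Among the CPM of the 10 disallowed genes, Pecam1 and Cd68 in the 3 groups of 4 to 6 libraries, 3 of 36 sets held a library far from the others by Dixon's test at 95%, where chance flags about 1 in 20. Slc16a1 in Ctrl chow replicate 1 stood at 2.60 CPM, against 0.599 to 0.978 CPM in the other libraries of that group (gap over range 0.811). The same library held the most Ldha of the series, 75.4 CPM. Pdgfra in Ctrl HFD replicate 4 stood at 0.535 CPM, against 0 to 0.0888 CPM in the others (gap over range 0.834). Pdgfra in Ctrl chow replicate 2 stood at 0.498 CPM, against 0 to 0.105 CPM in the others (gap over range 0.789). Both values of Pdgfra rest on 17 counts.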

How the results depend on the processing

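Of 1367 recomputed log2 changes of the 10 members, 1251 kept their direction and their side of the threshold. A further 107 turned sign, among them Maf at −2.65, which also came to pass the threshold. The other 9 kept their direction and came to pass it. Members called were 0 of 10 in the 5 comparisons, and stayed at 0 with each library left out in turn. The exceptions were 3 members with the covariates and 1 with covariates and pairs summed (LIRKO against Ctrl on chow), 1 for HFD in LIRKO with only the compared groups, 1 for HFD in Ctrl with DESeq2 or without LIRKO chow replicates 1 and 2, and 1 each for LIRKO against Ctrl on chow, HFD in LIRKO and HFD in Ctrl without LIRKO chow replicates 3 and 4. With the endothelial and macrophage covariates, the sign turned for LIRKO against Ctrl on chow in Acot7 (0.34) and Mgst1 (0.79), and for LIRKO against Ctrl on HFD in Maf (−0.19). It turned also for HFD in LIRKO in Hk1 (−1.04), Oat (−0.91), Acot7 (−0.50), Cxcl12 (−0.95), Maf (−0.44), Mgst1 (−0.40) and Pdgfra (−1.51), for HFD in Ctrl in Hk1 (−0.07), Oat (−0.35), Acot7 (−0.30), Cxcl12 (−0.57), Maf (−0.16) and Pdgfra (−3.25), and for the interaction in Ldha (−1.23), Hk1 (−0.97), Oat (−0.56), Acot7 (−0.20), Cxcl12 (−0.37), Maf (−0.28) and Mgst1 (−0.41). With the LIRKO chow pairs summed it turned for the interaction in Cxcl12 (−0.00). With covariates and pairs summed it turned for LIRKO against Ctrl on chow in Acot7 (0.38) and Mgst1 (0.88). With covariates and without LIRKO chow replicates 1 and 2 it turned for LIRKO against Ctrl on chow in Acot7 (0.25), Cxcl12 (0.14) and Mgst1 (0.33). With covariates and without LIRKO chow replicates 3 and 4 it turned for LIRKO against Ctrl on chow in Acot7 (0.53), Lmo4 (0.13), Maf (−1.05), Mgst1 (1.81) and Pdgfra (3.62). With no filter on low counts it turned for LIRKO against Ctrl on chow in Mgst1 (0.00). Without Ctrl HFD replicates 1 and 2 it turned for LIRKO against Ctrl on chow in Mgst1 (0.00), for LIRKO against Ctrl on HFD in Slc16a1 (−0.11), for HFD in Ctrl in Ldha (0.21) and Lmo4 (−0.11) and for the interaction in Ldha (−0.24), Hk1 (−0.11), Oat (−0.19) and Cxcl12 (−0.03). Without LIRKO chow replicates 1 and 2 it turned for LIRKO against Ctrl on chow in Acot7 (0.22), Cxcl12 (0.49) and Mgst1 (0.52), for HFD in LIRKO in Cxcl12 (−0.30) and for the interaction in Hk1 (−0.51), Oat (−0.46), Cxcl12 (−0.64) and Maf (−0.60). Without LIRKO chow replicates 3 and 4 it turned for LIRKO against Ctrl on chow in Hk1 (−0.24), Oat (−0.79), Lmo4 (0.13) and Maf (−2.65) and for HFD in LIRKO in Ldha (0.13) and Slc16a1 (0.13). With 1 library left out, the sign turned in these cases. For LIRKO against Ctrl on chow the values ran from −0.11 to 0.46 for Oat, from −0.5 to 0.11 for Cxcl12, from −0.14 to 0.04 for Lmo4, from −0.53 to 0.39 for Maf, from −0.3 to 0.28 for Mgst1 and from −2.35 to 0.51 for Pdgfra. For LIRKO against Ctrl on HFD the values ran from −0.52 to 0.13 for Cxcl12 and from −0.01 to 0.57 for Maf. For HFD in LIRKO the values ran from −0.42 to 0.37 for Ldha, from −0.23 to 0.28 for Slc16a1 and from −0.01 to 0.7 for Cxcl12. For HFD in Ctrl the values ran from −0.95 to 0.44 for Ldha, from −0.1 to 0.8 for Slc16a1 and from −1.46 to 2.42 for Pdgfra. For the interaction the values ran from −0.49 to 0.9 for Ldha, from −0.83 to 0.07 for Slc16a1, from −0.21 to 0.53 for Hk1, from −0.11 to 0.46 for Oat, from −0.36 to 0.35 for Cxcl12 and from −0.11 to 0.81 for Maf. None of these turned values, other than Maf at −2.65, was called. The counts of all genes called were 993, 98, 392, 1914 and 1 in the 5 comparisons, in the order genotype on chow, genotype on HFD, diet in LIRKO, diet in Ctrl and interaction, and moved by more than 1.5 times under many settings. With DESeq2 they were 1649, 316, 1059, 3910 and 42. With the pairs summed they were 193, 54, 7, 114 and 0. Without Ctrl HFD replicates 1 and 2 they were 1765, 193, 1191, 34 and 8. With the covariates they were 1605, 117, 3, 1 and 2. Without LIRKO chow replicates 1 and 2 they were 477, 68, 3, 983 and 1. Without LIRKO chow replicates 3 and 4 they were 256, 68, 787, 1043 and 0. With only the compared groups they were 1653, 19, 3403 and 1, with no filter 687, 90, 250, 457 and 1, and on chow 410 with covariates and pairs summed, 54 with covariates and without LIRKO chow replicates 1 and 2, and 30 without 3 and 4. With 1 library left out they ran from 431 to 1126 for LIRKO against Ctrl on chow, from 10 to 162 for LIRKO against Ctrl on HFD, from 55 to 502 for HFD in LIRKO, from 69 to 3877 for HFD in Ctrl and from 0 to 3 for the interaction. For HFD in Ctrl they were lowest without Ctrl chow replicate 1, 2 or 6 (97, 159 and 69) or Ctrl HFD replicate 1 or 2 (75 and 97), and for HFD in LIRKO at most 100 without LIRKO chow replicate 1 or 2 (55 and 55) or LIRKO HFD replicate 1, 2 or 3 (100, 56 and 67). For LIRKO against Ctrl on chow they were 431 and 444 without LIRKO chow replicate 3 and 4, and for LIRKO against Ctrl on HFD 15 and 10 without LIRKO HFD replicate 2 and 3. Of the 16 further disallowed genes, 0 of 2 calls for HFD in LIRKO held without LIRKO chow replicate 1 or 2 or any 1 of the LIRKO HFD libraries, and 0 or 1 of 4 for HFD in Ctrl without Ctrl chow replicate 1, 2, 5 or 6, Ctrl HFD replicate 1 or 2, LIRKO chow replicate 3 or 4, or LIRKO HFD replicate 2 or 3. Of the partners, 0 to 2 of 10 calls for HFD in Ctrl held without Ctrl chow replicate 1, 2 or 6 or Ctrl HFD replicate 1 or 2, 0 or 1 of 3 for HFD in LIRKO without LIRKO chow replicate 1 or 2 or any 1 of the LIRKO HFD libraries, and 1 and 2 of 4 for LIRKO against Ctrl on chow without LIRKO chow replicate 3 and 4. Of the endothelial markers, 0 of 5 calls for HFD in Ctrl held without Ctrl chow replicate 1, 2, 5 or 6, or Ctrl HFD replicate 1 or 2. The same held without LIRKO chow replicate 4 or any 1 of the LIRKO HFD libraries. Of the macrophage markers, 0 or 1 of 6 calls for HFD in LIRKO held without LIRKO chow replicate 1 or 2 or any 1 of the LIRKO HFD libraries. The call of Lyz2 on chow held in 10 of 18 such fits. No value of these list genes turned sign in any alternative. The causes were not tested, and the few counts of Pdgfra, Acot7 and Mgst1 limit their precision. No paired analysis was possible because the labels carry no replicate numbers and nothing in them ties libraries of different groups to each other.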
